A study of Mus musculus with 12 samples.

Results

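Matrix metalloproteinases (MMPs), proteases of the ADAMTS family and the tissue inhibitors of metalloproteinases (TIMPs) were taken from the RNA-seq counts as the protein-coding rows named Mmp, Adamts or Timp with a number, which gave 45 of the 54446 rows: 22 Mmp genes, 19 Adamts genes and 4 Timp genes. The row Mmp1a matched by name but is annotated as a polymorphic pseudogene and was left out, with 2 counts in 1 library. The cells were NIH3T3, an established line of mouse embryonic fibroblasts, either wild type or ΔN-VEGF (dN-VEGF in the labels), in which both alleles of Vegfa had lost the stretch that encodes N-VEGF, the amino-terminal fragment of the longer VEGF precursor. Both kinds of cells were kept in normoxia or for 16 h in a hypoxia chamber below 0.2% oxygen, and each of the 4 groups had 3 libraries, so that 12 libraries were compared. The deletion was made with Cas9 in cells picked as single clones and selected on antibiotics, followed by a virus carrying the recombinase VCre and cell sorting, steps that wild-type cells are not described as sharing, so that clone, handling and deletion cannot be told apart. The libraries are called triplicates, and a general statement of repeated experiments in triplicates does not say whether these libraries came from separate cultures, so p-values measure the spread between these libraries, which may be technical.

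MMPs are zinc-dependent proteases that are made as inactive proenzymes and cut components of the extracellular matrix, while ADAMTS proteases cut proteoglycans, process procollagens or act on other secreted proteins. TIMPs bind the active site of these enzymes, and TIMP2 together with the membrane-anchored MMP14 also forms the complex that activates the proenzyme of MMP2, the gelatinase typical of fibroblasts. Hypoxia is known to change the making and the removal of matrix in fibroblasts, and several MMP genes are textbook targets of AP-1, a transcription factor that binds the sequence TGANTCA.

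The Mmp genes on chromosome 9 form a cluster of 9 members between positions 7272514 and 7699585 of GRCm38, a span of 427 kb, and their promoters are shown because Mmp3, Mmp10 and Mmp13 of this cluster were highest in the same library. TGANTCA, searched on both strands from 250 bases before to 50 bases after each annotated start in RefSeq (GRCm38.p6), was found in 7 of the 9 cluster genes and in 0 of the 22 other members with an entry, where 8.97% of the 27025 genes in the table have it in any of their promoters. By promoter it was in 7 of 11 entries of the cluster, with no match in 1 of the pair of starts listed for each of Mmp12 and Mmp7, and in 7.81% of all 32851 entries. The table had entries for 31 members and none for 14. Those not searched were Adamts4, Adamts5, Adamts6, Adamts7, Adamts8, Adamts10, Adamts15, Adamts16, Adamts19, Mmp2, Mmp9, Mmp16, Mmp17 and Mmp19. The 7 windows of 57 bases follow in chromosomal order, each in the direction of its gene, with the match to TGANTCA in capitals.
Mmp13: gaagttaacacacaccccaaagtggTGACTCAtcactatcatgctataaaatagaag
Mmp12: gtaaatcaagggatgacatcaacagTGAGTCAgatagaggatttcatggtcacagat
Mmp1b: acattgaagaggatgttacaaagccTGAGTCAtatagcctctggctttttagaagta
Mmp3: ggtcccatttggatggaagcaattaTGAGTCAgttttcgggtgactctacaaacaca
Mmp10: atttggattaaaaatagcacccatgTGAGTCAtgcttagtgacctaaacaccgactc
Mmp20: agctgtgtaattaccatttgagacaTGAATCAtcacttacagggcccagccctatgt
Mmp7: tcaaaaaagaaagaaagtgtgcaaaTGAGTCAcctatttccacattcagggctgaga
The windows lie at chr9:7272454-7272510 for Mmp13, chr9:7347305-7347361 for Mmp12, chr9:7388088-7388144 on the minus strand for Mmp1b, chr9:7445751-7445807 for Mmp3, chr9:7502254-7502310 for Mmp10, chr9:7628111-7628167 for Mmp20 and chr9:7692002-7692058 for Mmp7. The match is TGAGTCA in 5 of them, TGACTCA in Mmp13 and TGAATCA in Mmp20, and it begins between 35 and 95 bases before the start. Only letters were matched, and nothing about binding was measured. Of the members with an entry that rose in hypoxia in either line, Adamts13, Mmp11 and Mmp23 held neither ACGTG nor GCGTG, the core letters bound by hypoxia-inducible factors, and Adamts1 held GCGTG, where 19.6% and 32.4% of all promoters hold these letters on either strand.

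Each library had 30519052 to 43056690 counts on genes, and 22 members passed the filter on low counts, which was set over all genes and groups and left 14724 genes. Of these members, Mmp3 passed only through wild-type normoxia, Adamts13 only through ΔN-VEGF hypoxia and Mmp23 only through the hypoxic groups, so that their calls against other groups rest on the groups that let them in. Wild-type normoxia replicate 2 stood apart, with correlations of log2 CPM (counts scaled to library size with TMM factors) of 0.956 and 0.957 with replicates 1 and 3, which correlated at 0.996 with each other. It correlated more closely with the 3 ΔN-VEGF normoxia libraries, at 0.976, 0.984 and 0.975, than with its own partners. Its Vegfa level, given below, was also nearer to theirs. Its Adamts7 level, at 43.6 CPM, was near its partners (49.9 and 44.3) and above ΔN-VEGF normoxia (15.7, 32.2 and 15.5). Its Mmp3 count was 62, against 12 and 17 in its partners and 0, 1 and 3 in ΔN-VEGF normoxia. These values differ on which line it is nearer to, and whether its label as a wild-type library is right was not tested. Counts of members without it and without both normoxia libraries numbered 2 are given below. ΔN-VEGF normoxia replicate 2 was at 0.986 and 0.986 where its partners were at 0.996. Vegfa stood at 86.1, 39.4 and 82.6 CPM in wild-type normoxia, 277, 272 and 291 in wild-type hypoxia, 37.3, 34.2 and 35.5 in ΔN-VEGF normoxia and 437, 419 and 430 in ΔN-VEGF hypoxia, but a count of the whole gene does not check the loss of a part of it. All 10 of 10 hypoxia-responsive genes listed as a check rose in both lines. Of 10 fibroblast markers 8 were tested, and their sum was 16900 to 24100 CPM in wild-type normoxia, 27000 to 29200 in wild-type hypoxia, 20300 to 21500 in ΔN-VEGF normoxia and 40700 to 42800 in ΔN-VEGF hypoxia. The sums of 6 macrophage, 6 endothelial and 6 epithelial markers lay at 22.4 to 63.8, 1.98 to 25.3 and 2.23 to 10 CPM, with the highest endothelial sums in ΔN-VEGF hypoxia and Epcam at 0, and mitochondrial genes took 2.62% to 3.55% of counts in normoxia and 1.53% to 2.07% in hypoxia. The part of these differences in the results was not tested, and in bulk samples fewer expressing cells and less RNA per cell cannot be told apart.

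Per kb of exon, 4 genes carried most of the signal in every group: Timp2, Mmp2, Timp1 and Mmp14. In wild-type normoxia Mmp2 stood at 223 ± 85.2 CPM per kb (SD, n = 3) and Timp2 at 207 ± 10.5, with overlapping libraries, followed by Timp1 at 78.4 ± 28.6 and Mmp14 at 54.3 ± 12.7. In ΔN-VEGF hypoxia the order was Timp2 at 233, Timp1 at 106, Mmp2 at 92.4 and Mmp14 at 73, with no overlap between neighbours. Adamts1 was the most abundant Adamts gene per length in each of the 4 groups, at 15.7 and 19.5 CPM per kb in normoxic and hypoxic wild-type cells and at 12.7 and 23.5 in normoxic and hypoxic ΔN-VEGF cells. At the low end, Mmp3, Mmp23 and Adamts13 had means of at most 1.1 CPM in every group.

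**Figure D1:**
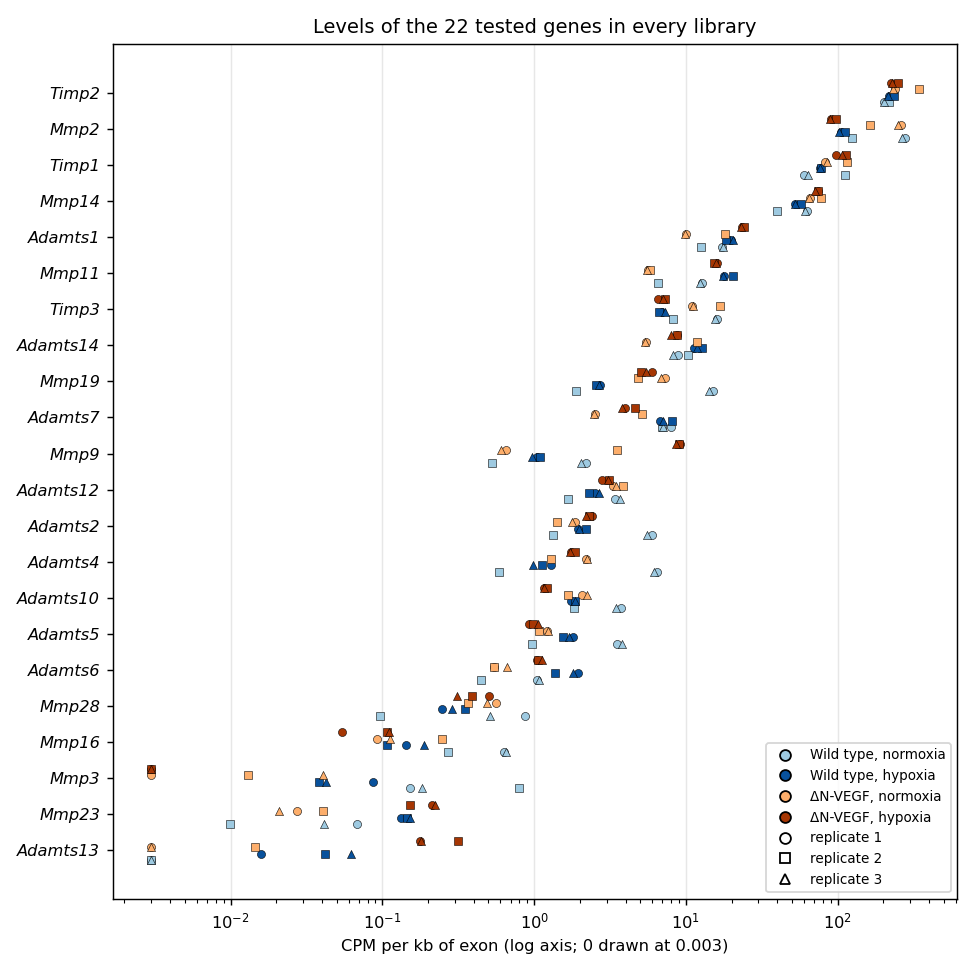
Levels of the 22 tested genes in CPM per kb of exon (log axis), 1 point per library, with colours for the 4 groups, shapes for the replicate and 0 drawn at 0.003. Timp2, Mmp2, Timp1 and Mmp14 sit at the top in every library, and the squares of replicate 2 in normoxia often sit away from the circle and triangle of the same colour.

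The other 23 members did not pass the filter. Of these, 8 had no count in any library: Adamts3, Adamts9, Adamts18, Adamts19, Mmp1b, Mmp7, Mmp8 and Mmp27, and a count of 0 allows up to 3 counts, or 0.0578 to 0.103 CPM depending on the library. The highest counts in a single library were 50 for Mmp10 and 22 for Mmp13, both in wild-type normoxia replicate 2, then 10 for Mmp15 and 8 for Adamts15. Mmp24 reached 5 counts, Mmp12, Mmp17 and Mmp21 reached 4, and Adamts16 reached 3. Adamts8 and Timp4 reached 2 counts, and Adamts17, Adamts20, Mmp20 and Mmp25 reached 1. Of the 3 members listed here as collagenases (Mmp1b, Mmp8 and Mmp13), none was therefore tested, and Mmp13 was the only one with counts.

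The first comparison asked how 16 h of hypoxia changed these genes in wild-type cells. Of the 22 tested members, 4 rose (Adamts6, Adamts13, Mmp11 and Mmp23), where 18.2% of all tested genes rose, and 7 fell (Adamts4, Adamts10, Mmp2, Mmp3, Mmp16, Mmp19 and Timp3), where 18.3% of all tested genes fell (edgeR quasi-likelihood test, Benjamini-Hochberg adjusted p below 0.05 over all genes). The median log2 fold change of the members was -0.42, also with Adamts13 at its lower bound, against -0.07 over all tested genes. In ΔN-VEGF cells, 6 members rose (Adamts1, Adamts6, Adamts13, Mmp9, Mmp11 and Mmp23), where 26.9% of all genes did, and 3 fell (Adamts10, Mmp2 and Timp3), where 26.4% did, with a median of -0.02 over the members and -0.01 over all genes. That median became 0.12 with Mmp3, which had no count in hypoxic ΔN-VEGF cells, at its bound. With libraries scaled by total counts in place of TMM factors, the median of all genes moved from -0.07 to -0.3 for wild-type cells. For ΔN-VEGF cells it moved from -0.01 to -0.41. With total counts, rises and falls among the members were 2 and 8 for wild-type cells, and 4 and 4 for ΔN-VEGF cells, where 45.6% and 59.8% of all tested genes were called. Over all genes, with total counts, rises made up 28.2% and 25.6% of the calls in place of 49.8% and 50.5%. Fitted to the 6 wild-type libraries alone, 3 of the 11 wild-type calls remained (Mmp2, Mmp16 and Timp3), where 23.8% of all tested genes were called, and Adamts13 was not tested.

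Among the gelatinases, Mmp2 fell in both lines. It stood at 935, 420 and 896 CPM in wild-type normoxia and at 353, 373 and 344 CPM in wild-type hypoxia, and at 872, 552 and 835 CPM in ΔN-VEGF normoxia and 306, 328 and 301 CPM in ΔN-VEGF hypoxia. Every normoxic library was above every hypoxic one, and replicate 2 was the lowest normoxic library in both lines. The log2 fold change was -1.07 ± 0.26 (SE) in wild-type cells (adjusted p = 0.0079) and -1.27 ± 0.26 in ΔN-VEGF cells (adjusted p = 0.0019), and it became -1.35 and -1.46 without the normoxia libraries numbered 2.

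Mmp9, the other gelatinase, moved with hypoxia in ΔN-VEGF cells. Its levels were 7.76, 1.88 and 7.26 CPM in wild-type normoxia, 3.68, 3.87 and 3.44 CPM in wild-type hypoxia, 2.32, 12.5 and 2.13 CPM in ΔN-VEGF normoxia, and 32.6, 32 and 30.3 CPM in ΔN-VEGF hypoxia. The hypoxic ΔN-VEGF libraries thus lay above all 9 others, while in normoxia replicate 2 was the lowest wild-type and the highest ΔN-VEGF library. Mmp9 rose by 2.49 ± 0.65 on the log2 scale in ΔN-VEGF cells (adjusted p = 0.0078), against a log2 fold change of -0.62 ± 0.65 in wild-type cells (adjusted p = 0.48). The difference between these responses was 3.11 ± 0.91 with an adjusted p of 0.087, and 4.85 ± 0.14 with an adjusted p of 1.3e-15 without both normoxia libraries numbered 2. In the direct comparison of hypoxic cells, Mmp9 was higher with the deletion by 3.11 ± 0.68 (log2, adjusted p = 0.0091), and this difference involves none of the normoxia libraries other than through the shared estimate of the spread.

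Of the stromelysins, Mmp11, whose product is activated inside the cell by furin, rose in both lines. Its levels were 35.4, 18.2 and 34.1 CPM in wild-type normoxia, 49.1, 57 and 48.7 CPM in wild-type hypoxia, 15.6, 16.1 and 15.3 CPM in ΔN-VEGF normoxia and 44.6, 42.3 and 43.6 CPM in ΔN-VEGF hypoxia. The normoxic and hypoxic libraries did not overlap in either line. The log2 fold change was 0.82 ± 0.2 in wild-type cells (adjusted p = 0.008) and 1.47 ± 0.2 in ΔN-VEGF cells (adjusted p = 0.00013), and the call in wild-type cells was lost with total-count scaling. Chchd10 lies opposite to 5.58% of the exon bases of Mmp11, at 0.378 CPM on average. Mmp3 (stromelysin-1) had 12, 62 and 17 counts in wild-type normoxia, 6, 2 and 3 in wild-type hypoxia, 0, 1 and 3 in ΔN-VEGF normoxia and 0 in each hypoxic ΔN-VEGF library. Its fall in wild-type hypoxia (log2 fold change -2.68 ± 0.83, adjusted p = 0.032) became -1.52 without wild-type normoxia replicate 2 (adjusted p = 0.04), and it was lost when any 1 hypoxic wild-type library was left out. With no filter on low counts the adjusted p was 0.011.

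Among the membrane-anchored MMPs, Mmp14, the activator of MMP2, had no call in any of the 5 comparisons in the edgeR fit to all 12 libraries, while DESeq2 called it higher in hypoxic ΔN-VEGF than in hypoxic wild-type cells (log2 difference 0.45 ± 0.17, adjusted p = 0.036). It stood at 372, 237 and 362 CPM in wild-type normoxia, 311, 341 and 310 in wild-type hypoxia, 392, 460 and 387 in ΔN-VEGF normoxia and 442, 444 and 420 in ΔN-VEGF hypoxia. The log2 fold change in hypoxia was -0.01 ± 0.15 for the wild type and 0.08 ± 0.15 for ΔN-VEGF. Mmp16, another membrane-anchored member, was at 5.52, 2.34 and 5.62 CPM in wild-type normoxia, 1.25, 0.924 and 1.63 in wild-type hypoxia, 0.796, 2.15 and 0.98 in ΔN-VEGF normoxia and 0.47, 0.933 and 0.95 in ΔN-VEGF hypoxia. Wild-type Mmp16 fell by 1.82 ± 0.45 (log2, adjusted p = 0.0083), and in ΔN-VEGF cells, where the libraries overlapped, the log2 fold change was -0.74 ± 0.48 (adjusted p = 0.22). Without both normoxia libraries numbered 2 the fold changes of Mmp16 were -2.1 and -0.18 (adjusted p = 2.8e-09 and 0.6).

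Mmp19, a secreted MMP that acts on basement membrane proteins, stood at 53.2, 6.64 and 49.9 CPM in wild-type normoxia, 9.65, 9 and 9.45 CPM in wild-type hypoxia, 25.9, 17 and 24 CPM in ΔN-VEGF normoxia and 21, 17.8 and 19.4 CPM in ΔN-VEGF hypoxia. Wild-type normoxia replicate 2 lay below every hypoxic wild-type library, far from its partners. In wild-type cells Mmp19 fell by 1.97 ± 0.55 (log2, adjusted p = 0.016), but the call was lost without wild-type normoxia replicate 1 or without any 1 of the hypoxic wild-type libraries, and the adjusted p over the alternatives ran from 2.3e-16 to 0.087. In ΔN-VEGF cells the log2 fold change was -0.2 ± 0.53 (adjusted p = 0.77). Opposite to Mmp19, the gene Tmem198b covers 22.3% of its exon bases and could share reads with it, since the kit does not keep strand, and Tmem198b had a log2 fold change of -0.08 in wild-type cells (adjusted p = 0.8) and -0.74 in ΔN-VEGF cells (adjusted p = 0.017), and a log2 difference of -0.92 between the hypoxic lines (adjusted p = 0.016).

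Mmp23 was low but rose in both lines. It had 0.16, 0.0232 and 0.0963 CPM in wild-type normoxia, 0.311, 0.342 and 0.357 in wild-type hypoxia, 0.0646, 0.0947 and 0.049 in ΔN-VEGF normoxia and 0.501, 0.354 and 0.521 in ΔN-VEGF hypoxia. No normoxic library reached a hypoxic one, and the log2 fold change was 1.81 ± 0.45 in wild-type cells (adjusted p = 0.0088) and 2.67 ± 0.47 in ΔN-VEGF cells (adjusted p = 0.00065). With only the 6 wild-type libraries in the fit, the wild-type call was lost (adjusted p = 0.057). Mmp28, the remaining tested MMP, had group means between 1.15 and 1.9 CPM and no call in any comparison in the edgeR fit to all 12 libraries, and without wild-type normoxia replicate 2 its log2 fold change in wild-type hypoxia was -1.21 ± 0.28 (adjusted p = 0.0024).

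**Figure D2:**
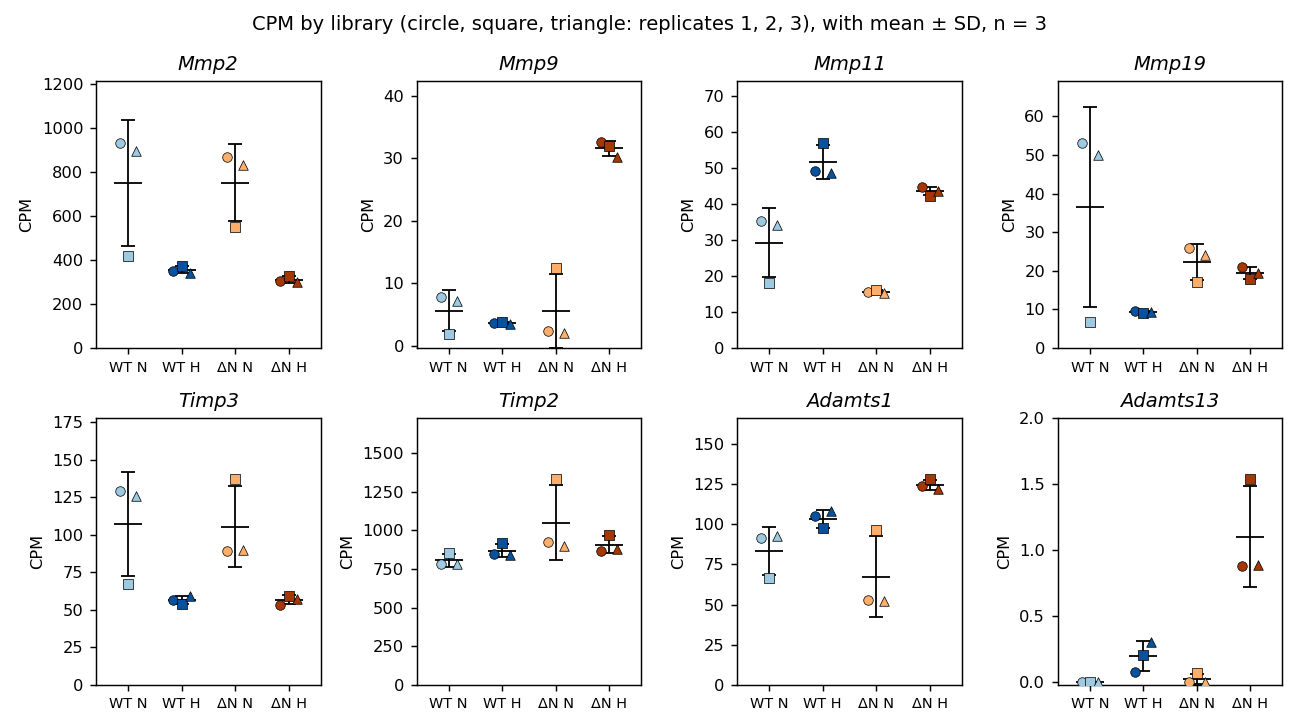
CPM of 8 genes in each library, with the mean and SD of each group (n = 3), for wild-type (WT) and ΔN-VEGF (ΔN) cells in normoxia (N) and hypoxia (H). Mmp2 and Timp3 are lower in hypoxia in both lines, Mmp11 and Adamts13 are higher, and Mmp9 is highest in the 3 hypoxic ΔN-VEGF libraries, at 30.3 to 32.6 CPM.

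Of the proteoglycan-cleaving ADAMTS proteases, Adamts1, Adamts4 and Adamts5 were tested. Adamts1, which cleaves versican and aggrecan, stood at 91.2, 66.3 and 92.5 CPM in wild-type normoxia, 105, 97.4 and 108 in wild-type hypoxia, 53.1, 96.7 and 52.3 in ΔN-VEGF normoxia and 124, 128 and 122 in ΔN-VEGF hypoxia. The hypoxic libraries were above the normoxic ones in both lines, with log2 fold changes of 0.31 ± 0.22 for the wild type (adjusted p = 0.29) and 0.89 ± 0.22 for ΔN-VEGF (adjusted p = 0.0053), a call that was lost with total-count scaling. Adamts4, an aggrecanase, was at 31, 2.83 and 29.7 CPM in wild-type normoxia, 6.2, 5.44 and 4.76 in wild-type hypoxia, 10.6, 6.27 and 10.7 in ΔN-VEGF normoxia and 8.45, 8.88 and 8.28 in ΔN-VEGF hypoxia. As with Mmp19, wild-type normoxia replicate 2 was below every hypoxic wild-type library. In wild-type cells Adamts4 fell by 1.95 ± 0.62 (log2, adjusted p = 0.029). The call was lost without wild-type normoxia replicate 1 or 3, without any 1 hypoxic wild-type library, with replicate number as a block (-1.72, adjusted p = 0.054) and with only the 6 wild-type libraries, and the adjusted p over all alternatives reached 0.12. Adamts5, the other aggrecanase, had no call in the edgeR fit to all 12 libraries, at 29.7 ± 16.8, 18.2 ± 1.42, 12.7 ± 0.973 and 10.7 ± 0.708 CPM in wild-type normoxia, wild-type hypoxia, ΔN-VEGF normoxia and ΔN-VEGF hypoxia (SD, n = 3). DESeq2 called Adamts5 lower in ΔN-VEGF than in wild-type normoxia (log2 difference -1.21 ± 0.38, adjusted p = 0.022, against 0.094 by edgeR).

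The procollagen-processing members Adamts2 and Adamts14 and the COMP-cleaving member Adamts12 had no call in any comparison in the edgeR fit to all 12 libraries with TMM factors and the filter on low counts. Adamts2, which removes the amino-terminal propeptide of procollagens, was at 55.5, 12.4 and 51.4 CPM in wild-type normoxia and 18.2, 20.5 and 18.3 in wild-type hypoxia, with a log2 fold change of -1.07 ± 0.4 (adjusted p = 0.059). Without wild-type normoxia replicate 2 it was -1.49 (adjusted p = 1.5e-07). In ΔN-VEGF cells Adamts2 had 17.3, 13.3 and 16.6 CPM in normoxia and 22.5, 21.6 and 20.3 in hypoxia, a log2 fold change of 0.45 ± 0.4 (adjusted p = 0.37). DESeq2 called Adamts2 lower in wild-type hypoxia (adjusted p = 0.031) and lower in ΔN-VEGF than in wild-type normoxia (log2 difference -1.33 ± 0.41, adjusted p = 0.019). So did edgeR with no filter on low counts (adjusted p = 0.023 and 0.049). With total-count scaling edgeR called only the fall in wild-type hypoxia (-1.35, adjusted p = 0.029). Adamts14 was at 47.6 ± 5.53 and 62.1 ± 3.83 CPM in normoxic and hypoxic wild-type cells and at 39.2 ± 19 and 43.9 ± 2.11 CPM in normoxic and hypoxic ΔN-VEGF cells (SD, n = 3), and with total-count scaling it was lower in hypoxic ΔN-VEGF than in hypoxic wild-type cells (log2 difference -0.72 ± 0.23, adjusted p = 0.037). Without ΔN-VEGF normoxia replicate 2, at 61.1 CPM against 28.5 and 28 in its partners, Adamts14 passed in both hypoxia responses and in both comparisons of the lines. Adamts12 was at 31.7 ± 11.9, 27.2 ± 1.93, 38.6 ± 2.81 and 32.7 ± 1.92 CPM in wild-type normoxia, wild-type hypoxia, ΔN-VEGF normoxia and ΔN-VEGF hypoxia (SD, n = 3).

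Adamts13, which cleaves von Willebrand factor, went from no count in any of the 3 wild-type normoxia libraries to 3, 6 and 12 counts in wild-type hypoxia, at least 2.82-fold higher against the floor of 3 counts per library. In ΔN-VEGF cells, 3 counts in all of normoxia became 105 in hypoxia, a ratio of 47.4 in CPM (95% interval 15.8 to 233, counting error only). All 3 normoxic counts were in ΔN-VEGF normoxia replicate 2, and without this library, which stood apart, normoxia was at 0 and hypoxia at least 15-fold higher against the floor of 3 counts per library. The CPM in hypoxic ΔN-VEGF cells were 0.877, 1.54 and 0.889, all above the 0.0778, 0.205 and 0.306 of hypoxic wild-type cells, a ratio of 5.59 (interval 3.48 to 9.41). Both rises passed the test (adjusted p = 0.0085 and 0.00042), as did the difference between the hypoxic lines (log2 2.47 ± 0.59, adjusted p = 0.02), in a gene that was tested only because of its level in ΔN-VEGF hypoxia. With no filter on low counts the adjusted p were 0.002, 1.4e-05 and 0.0077. That last call was lost without hypoxic wild-type replicate 1 or 2 or hypoxic ΔN-VEGF replicate 2 or 3, and the adjusted p over all alternatives reached 0.084.

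Adamts6 and Adamts10, a related pair linked to fibrillin microfibrils, moved in opposite directions. Adamts6 stood at 8.07, 3.46 and 8.37 CPM in wild-type normoxia, 15, 10.7 and 14 in wild-type hypoxia, 4.22, 4.21 and 5.19 in ΔN-VEGF normoxia and 8.14, 8.23 and 8.83 in ΔN-VEGF hypoxia. Normoxic and hypoxic libraries did not overlap in either line, and Adamts6 rose by 1 ± 0.28 (adjusted p = 0.015) and 0.89 ± 0.28 (adjusted p = 0.02) on the log2 scale, but both calls were lost with total-count scaling. Adamts10 stood at 30.9, 15 and 28.5 CPM in wild-type normoxia, 14.3, 15.3 and 15.4 in wild-type hypoxia, 17.2, 13.7 and 18.3 in ΔN-VEGF normoxia and 9.58, 10.1 and 9.59 in ΔN-VEGF hypoxia. It fell by 0.73 ± 0.22 (adjusted p = 0.025) and by 0.75 ± 0.22 (adjusted p = 0.015) on the log2 scale, with overlapping libraries in wild-type cells only. The wild-type calls were lost without hypoxic wild-type replicate 1 for Adamts6 (adjusted p over all alternatives up to 0.099), and without wild-type normoxia replicate 1 or 3 or any 1 hypoxic wild-type library for Adamts10 (up to 0.1). The call of Adamts6 in ΔN-VEGF cells was lost without ΔN-VEGF normoxia replicate 1 or 2 or ΔN-VEGF hypoxia replicate 3 (adjusted p over all alternatives up to 0.22).

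Of the inhibitors, Timp3, which binds to the matrix and also inhibits ADAMTS proteases, fell in both lines. It stood at 129, 67.4 and 126 CPM in wild-type normoxia, 56.6, 54 and 59.1 in wild-type hypoxia, 89.5, 137 and 90.1 in ΔN-VEGF normoxia and 53.5, 59.4 and 57.1 in ΔN-VEGF hypoxia. All normoxic libraries were above all hypoxic ones. The log2 fold change of Timp3 was -0.93 ± 0.23 for the wild type (adjusted p = 0.0091) and -0.9 ± 0.23 for ΔN-VEGF (adjusted p = 0.0074). Its exons share 21.3% of their bases with the opposite gene Syn3, which averaged 0.307 CPM. Timp2 had no call in the edgeR fit to all 12 libraries, at 781, 854 and 785 CPM in wild-type normoxia, 849, 916 and 838 in wild-type hypoxia, 922, 1330 and 899 in ΔN-VEGF normoxia and 869, 971 and 882 in ΔN-VEGF hypoxia. Its log2 fold change in ΔN-VEGF hypoxia was -0.21 ± 0.14 (adjusted p = 0.22), and with total-count scaling it was -0.61 ± 0.12 (adjusted p = 0.0011). Timp1, also without a call in that fit, had 53.4, 98.8 and 56.5, then 67.5, 69.1 and 67.4, then 73.2, 102 and 75.3, and then 86.7, 101 and 94.2 CPM in the same order of groups, with replicate 2 highest in normoxia in both lines. Without wild-type normoxia replicate 2, Timp1 was higher with the deletion, by 0.61 ± 0.13 in normoxia and 0.46 ± 0.11 in hypoxia (log2, adjusted p = 0.0016 and 0.0047).

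**Figure D3:**
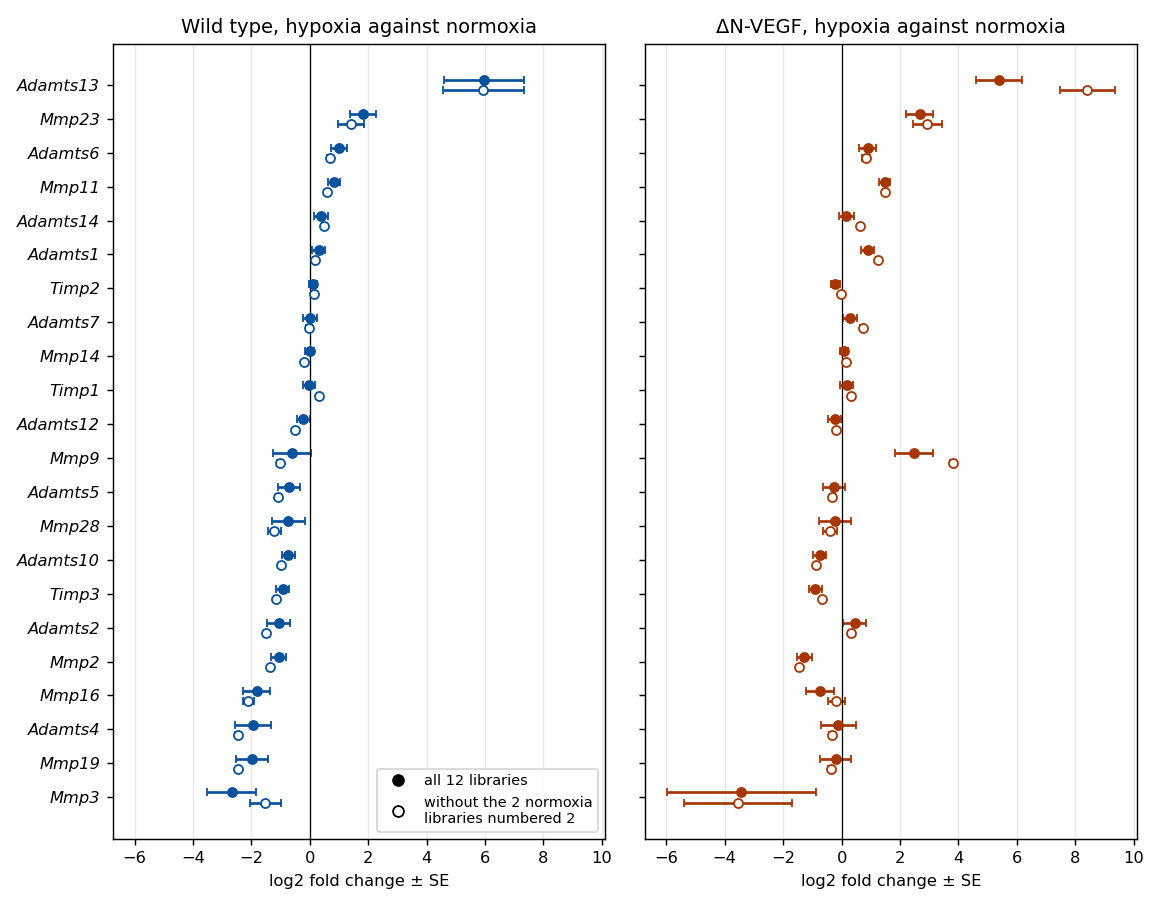
Log2 fold change (± SE) of the 22 tested genes in hypoxia against normoxia in wild-type and ΔN-VEGF cells, with all 12 libraries (filled points) and without the 2 normoxia libraries numbered 2 (open points). In wild-type cells Mmp19, Adamts4 and Adamts2 move further below 0 without these libraries, and in ΔN-VEGF cells Mmp9 moves from 2.49 to 3.82.

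Ratios of reads per kb within a library do not depend on how libraries are scaled, and were chosen after the values had been seen. Mmp2 over Timp2 was 1.38, 0.568 and 1.32 in wild-type normoxia and 0.481, 0.47 and 0.474 in wild-type hypoxia, and 1.09, 0.478 and 1.07 in ΔN-VEGF normoxia and 0.407, 0.39 and 0.395 in ΔN-VEGF hypoxia. The hypoxic ratios were below every normoxic ratio of the same line, and replicate 2 was the normoxic library closest to them. Mmp2 over Mmp14 averaged 3.99 ± 0.737, 1.97 ± 0.0391, 3.29 ± 1.02 and 1.27 ± 0.0395 in wild-type normoxia, wild-type hypoxia, ΔN-VEGF normoxia and ΔN-VEGF hypoxia (SD, n = 3). Mmp9 over Timp1 was 0.0942, 0.0795 and 0.0808 in hypoxic ΔN-VEGF cells and at most 0.0364 in any other library. Timp3 over Timp2 averaged 0.0647 ± 0.0233 and 0.0313 ± 0.00282 in wild-type cells, and 0.0478 ± 0.00131 and 0.0299 ± 0.000935 in ΔN-VEGF cells. Exact permutation tests of 3 against 3 libraries cannot go below a two-sided p of 0.1, so none is given.

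**Figure D4:**
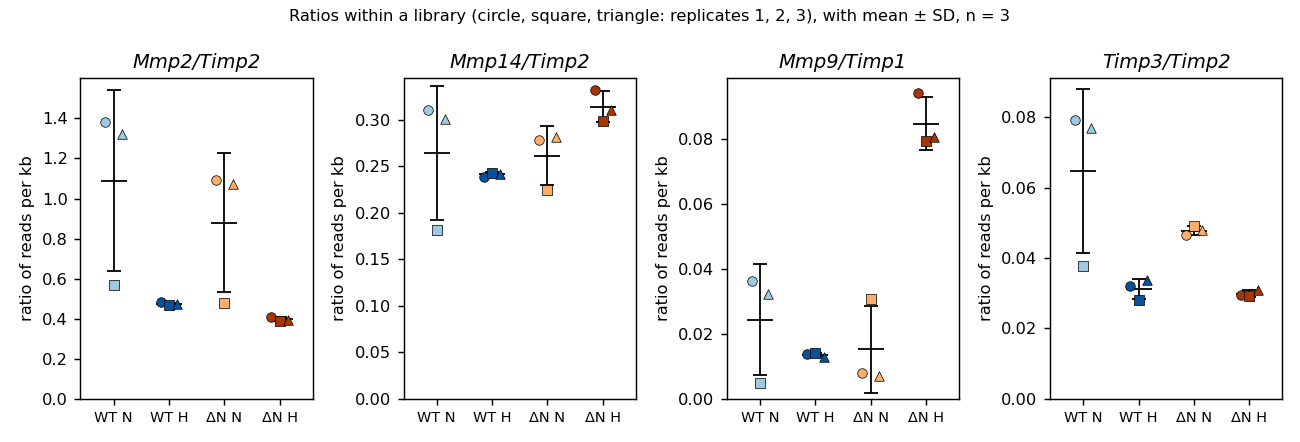
Ratios of reads per kb of 4 pairs of genes within each library, with the mean and SD of each group (n = 3), for wild-type (WT) and ΔN-VEGF (ΔN) cells in normoxia (N) and hypoxia (H). Mmp2 over Timp2 is lower in hypoxia in both lines, at 0.39 to 0.481, and Mmp9 over Timp1 is highest in hypoxic ΔN-VEGF cells.

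Mmp2 made up 71.1% to 74.7% of the summed CPM per kb of the Mmp family in normoxic wild-type cells and 57.4% to 58.5% once hypoxic. In ΔN-VEGF cells its share was 64% to 76.4% in normoxia and 46.1% to 48.2% in hypoxia, where Mmp14 took 37% to 37.6%. The sum itself was 372, 175 and 356 CPM per kb in wild-type normoxia, 179, 193 and 176 in wild-type hypoxia, 339, 256 and 326 in ΔN-VEGF normoxia and 197, 202 and 190 in ΔN-VEGF hypoxia. Wild-type normoxia replicate 2 was thus level with the hypoxic wild-type libraries, whereas in ΔN-VEGF cells all normoxic sums were above the hypoxic ones. The sums of the Timp genes were 277 to 339, 298 to 320, 327 to 474 and 327 to 370 CPM per kb in wild-type normoxia, wild-type hypoxia, ΔN-VEGF normoxia and ΔN-VEGF hypoxia, with overlap in both lines.

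The next comparisons set the lines against each other, first in normoxia and then in hypoxia. In normoxia 4 members were lower in ΔN-VEGF cells (Adamts7, Mmp3, Mmp11 and Mmp16), where 2.97% of all tested genes were lower, and none was higher. At an unadjusted p below 0.05 there were 9 members, of which 2 were higher. Shares of all genes are not given at unadjusted thresholds, so such counts of members cannot be set against a background. The libraries numbered 2 of these 2 groups deviated together from their group means, and libraries 1 and 3 did so whether or not their numbers matched. With replicate number as a block 1 member remained, Adamts7, where 4.37% of all genes were called. The block fitted to the 6 normoxia libraries alone called 0 members, but also only 1 of all 13934 genes (0.00718%), and 6 members had an unadjusted p below 0.05 there. The median log2 difference was -0.36 over the members and -0.03 over all tested genes.

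Adamts7, which cleaves cartilage oligomeric matrix protein, stood at 49.9, 43.6 and 44.3 CPM in wild-type normoxia and 15.7, 32.2 and 15.5 CPM in ΔN-VEGF normoxia, a log2 difference of -1.12 ± 0.24 (adjusted p = 0.028, and 0.02 with the block). In hypoxia it stood at 42.4, 50.5 and 44.3 CPM in wild-type and 24.8, 28.8 and 23.8 CPM in ΔN-VEGF cells, a log2 difference of -0.83 ± 0.24 (adjusted p = 0.035). The lines did not overlap in either condition, and ΔN-VEGF normoxia replicate 2 was the ΔN-VEGF library nearest to wild type. Among the fits that left out 1 library, the normoxic call held only without wild-type normoxia replicate 2, wild-type hypoxia replicate 2 or ΔN-VEGF normoxia replicate 2. The hypoxic call was lost in each fit that left out 1 hypoxic library, and the adjusted p over all alternatives reached 0.33 and 0.12. Tbc1d2b, at 43.1 CPM on average, lies opposite to 1.94% of the exon bases of Adamts7, and it fell in hypoxia by 1.5 for the wild type and by 1.36 for ΔN-VEGF (log2, adjusted p = 5.7e-05 and 6.2e-05), with differences between the lines of -0.51 in normoxia and -0.37 in hypoxia (adjusted p = 0.12 and 0.15). The log2 difference in normoxia was -0.9 ± 0.2 for Mmp11 (adjusted p = 0.033) and -1.78 ± 0.44 for Mmp16 (adjusted p = 0.048), both without overlap. Without both normoxia libraries numbered 2 these differences were -1.16 and -2.64 (adjusted p = 5.1e-10 and 3.3e-09). The 91 counts of Mmp3 in wild-type normoxia against 4 in ΔN-VEGF normoxia gave a ratio of 21.2 (95% interval 8.01 to 79.5, counting error only), with 62 of the 91 in replicate 2. Without that wild-type library the log2 difference of Mmp3 moved from -4.31 to -3.15 (adjusted p = 0.045 and 0.003). Each of these 3 calls was also lost in most fits that left out 1 library, and none held with the block, where the adjusted p was 0.053 for Mmp11, 0.074 for Mmp16 and 0.054 for Mmp3.

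In hypoxia 3 members differed between the lines, where 20.1% of all tested genes did: Mmp9 and Adamts13 were higher in ΔN-VEGF cells and Adamts7 was lower. The median log2 difference was 0.12 over the members and -0.01 over all genes. With total-count scaling the median of all genes moved to -0.23, and the share of higher genes among all calls moved from 53.5% to 17.1%. With that scaling 2 members were higher and 3 lower, where 26.8% of all tested genes were called. Fitted to the 6 hypoxic libraries alone, which leaves out the normoxia libraries that stand apart, 16 of the 21 members tested passed, where 57% of all 13845 tested genes did. Among those without a call over 12 libraries were Mmp19, at 9.37 ± 0.332 CPM in wild-type and 19.4 ± 1.58 in ΔN-VEGF hypoxia (SD, n = 3, log2 difference 1.05 ± 0.54, adjusted p = 0.2), and Mmp14, at 321 ± 17.7 and 435 ± 13.4 (0.44 ± 0.15, adjusted p = 0.064).

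The last comparison asked whether the hypoxia response itself differed between the lines. No member passed edgeR's test, where 3.36% of all tested genes did, and DESeq2 called 1, Mmp9, where it called 10.7% of all genes. At an unadjusted p below 0.05 in edgeR there were 4 members, a count without a share of all genes beside it. The median difference was 0.25 over the members and 0.03 over all genes. It moved to -0.15 over all genes with total-count scaling, where the share of positive differences among all calls was 16.3% in place of 65.9%.

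All of these counts depended on the normoxia libraries numbered 2. Without both, 8 members rose and 13 fell in wild-type hypoxia, where 32.8% and 32.5% of all 15083 tested genes did, and 11 rose and 7 fell in ΔN-VEGF hypoxia, where 35.4% and 36% did. Between the lines, 2 members were higher and 14 lower in ΔN-VEGF normoxia (27.8% and 25.8% of all genes), and 9 were higher and 9 lower in ΔN-VEGF hypoxia (27.5% and 28.3%). The difference between the responses passed for 13 members, all of them positive, that is with a higher log2 fold change in ΔN-VEGF cells, where 25.8% of all genes passed as positive and 27% as negative. The largest of the 13 was that of Mmp9, followed by Adamts4 at 2.14 ± 0.13 (adjusted p = 4.8e-11), Mmp19 at 2.08 ± 0.11 (adjusted p = 4.7e-12), Mmp16 at 1.92 ± 0.35 (adjusted p = 0.0001) and Adamts2 at 1.82 ± 0.1 (adjusted p = 1.8e-11). These fits rest on 2 normoxia libraries a line, with the libraries that stood apart left out, and their adjusted p describe the libraries that remained. Leaving out wild-type normoxia replicate 2 alone gave 8 members for this difference, all positive, where 21.4% of all genes passed as positive and 23% as negative. Leaving out ΔN-VEGF normoxia replicate 2 alone gave 3, also positive, where 2.93% and 1.83% passed.

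In the cluster on chromosome 9, Mmp3 and Mmp10 had 62 and 50 counts and Mmp13 had 22 in wild-type normoxia replicate 2, more than in any other library. The other wild-type libraries had 2 to 17 counts of Mmp3 and 3 to 15 of Mmp10, and ΔN-VEGF libraries had 0 to 3 and 0 to 2. DESeq2, whose filter kept Mmp10, called it lower with the deletion in normoxia (adjusted p = 0.029) and in hypoxia (adjusted p = 0.012). Mmp12, without such a library, had 0 to 4 counts in all 12, and Mmp20 had 1 count in all. These 4 genes and Mmp13 all carry the TGANTCA match shown above, as do Mmp1b and Mmp7, which had no counts, so the letters are shared by genes with and without reads.

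**Figure D5:**
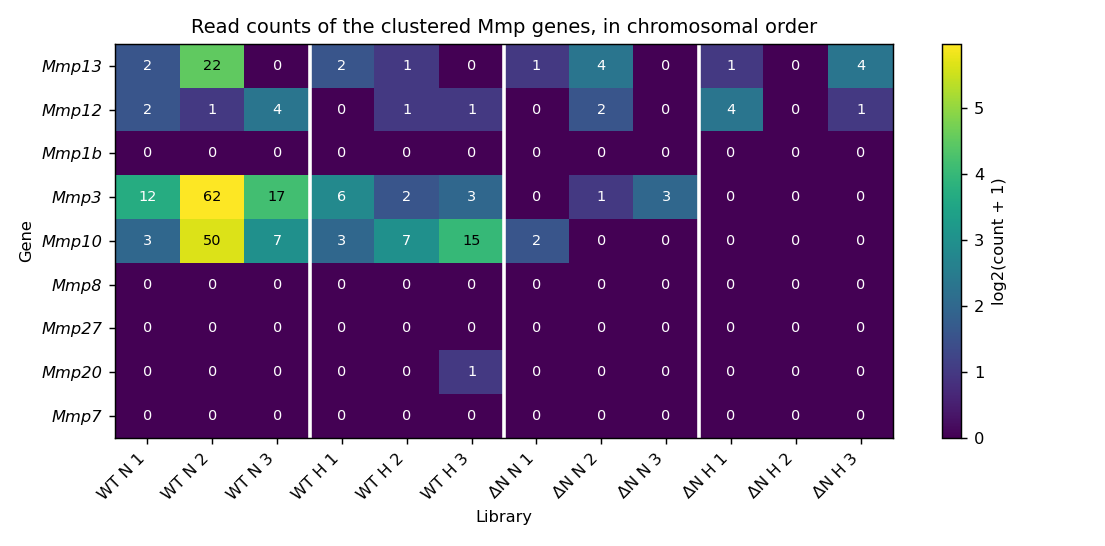
Raw read counts of the 9 Mmp genes of the cluster in each library (numbers in the cells, colour as log2 of the count + 1), for wild-type (WT) and ΔN-VEGF (ΔN) cells in normoxia (N) and hypoxia (H). Mmp3, Mmp10 and Mmp13 are highest in wild-type normoxia replicate 2, at 62, 50 and 22 counts, and 4 genes have no counts.

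Genes that activate, inhibit or clear these proteases were listed beside them. Of 13 such genes 7 were tested: 2 rose and 1 fell in wild-type hypoxia, and 4 rose and 1 fell in ΔN-VEGF hypoxia. Beside the counts of these lists stand the shares of all tested genes, 18.2% rising and 18.3% falling for the wild type and 26.9% and 26.4% for ΔN-VEGF. Bsg (basigin), which induces MMPs in neighbouring fibroblasts, rose from 515 to 3600 CPM in wild-type cells and from 664 to 7040 CPM in ΔN-VEGF cells, log2 fold changes of 2.81 ± 0.1 and 3.41 ± 0.1 (adjusted p = 9.5e-09 and 1.7e-09). A2m, a plasma protein that traps active proteases, went from 1 to 1112 counts in wild-type cells, a ratio of 1440 in CPM (95% interval 258 to 57000), and from 4 to 9013 counts in ΔN-VEGF cells, a ratio of 3050 (1190 to 11200, counting error only). In hypoxia A2m was higher in ΔN-VEGF cells by 3.18 ± 0.2 on the log2 scale (adjusted p = 1.1e-05). Furin, which cuts proenzymes, fell by 0.73 ± 0.11 and 0.58 ± 0.11 (adjusted p = 0.00046 and 0.0012). Reck, a membrane-anchored inhibitor of MMPs, had 11.3 CPM in wild-type and 25 in ΔN-VEGF hypoxia (log2 difference 1.14 ± 0.35, adjusted p = 0.042) and no call in either line's response in the fit to all 12 libraries, while without both normoxia libraries numbered 2 Reck had log2 fold changes of -0.8 for the wild type and 0.8 for ΔN-VEGF (adjusted p = 3.1e-09 and 2.1e-09).

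Of the plasminogen system, Plau, which activates plasminogen, rose by 0.76 ± 0.26 in wild-type cells (log2, adjusted p = 0.043), and its log2 fold change in ΔN-VEGF cells was -0.59 ± 0.26 (adjusted p = 0.082). The difference between these responses was -1.35 ± 0.37 (adjusted p = 0.074), and without both normoxia libraries numbered 2 it was -1.92 (adjusted p = 3e-12), with 1.05 for the wild type and -0.87 for ΔN-VEGF (adjusted p = 6.3e-11 and 3.1e-10). All 8 listed ADAM proteases were tested: 1 rise and 1 fall for the wild type, and 3 rises and 1 fall for ΔN-VEGF, led in level by Adam9 (up by 0.42 and 0.62), Adam15 (up by 0.67 in ΔN-VEGF cells) and Adam10, a sheddase of membrane proteins (-0.58 and -0.75). Of 6 ADAMTS-like proteins, which lack the protease domain, 4 were tested and Adamtsl5 fell in both lines (-0.56 and -0.65). Of 12 other matrix proteases and their helpers 5 were tested, with 3 falls for the wild type and 2 for ΔN-VEGF, among them the lysosomal protease Ctsl (-1.58 and -0.8), Ctsb (-0.73 in wild-type cells) and Pcolce, the enhancer of procollagen C-proteinase (-0.55 in ΔN-VEGF cells). Vcan (versican), a substrate of ADAMTS proteases and the only 1 of 4 listed proteoglycans tested, fell from 496 to 163 CPM in wild-type cells (log2 fold change -1.61 ± 0.35, adjusted p = 0.0045) and from 440 to 168 CPM in ΔN-VEGF cells (-1.39 ± 0.35, adjusted p = 0.0067).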

How the data were processed

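RNA was sequenced from 12 samples, 3 in each of 4 groups. The authors deposited raw counts of reads per gene, made by trimming 80-base single reads (Trim Galore, cutadapt 1.10), aligning with TopHat2 2.1.0 to GRCm38 (Ensembl 94 annotation) and counting with HTSeq 0.6.1; the strand setting is not given in the sources used here. The table was used as deposited, with conditions and replicate numbers from the labels. Positions and exon lengths came from GENCODE M21, promoter sequences from RefSeq.

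The fit was edgeR 4.0.16 (R 4.3.3; limma 3.58.1 as its library), with filterByExpr, TMM and 1 mean for each group. Quasi-likelihood F tests used all 12 samples, and p-values were adjusted by Benjamini and Hochberg over 14724 genes and called at an adjusted p below 0.05. CPM use library sizes scaled by TMM, from totals of 30519052 to 43056690 counts. DESeq2 1.42.0 was an alternative. The SE is the log2 fold change divided by the square root of F. In a test on simulated data, 92.1% of log2 changes of 2 and 64.6% of changes of 1 were recovered in wild-type hypoxia against normoxia, with 10 false calls among 14141 genes. For the lines in hypoxia the shares were 93.1% and 56.6%, with 9 false calls among 14126 genes. Simulated libraries were drawn independently, with none standing apart as the normoxia libraries numbered 2 did, so these figures may not hold for the real data.

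The members, gene lists and tests were chosen with earlier results of these data known. Members called in any comparison are named with every value, other tested members by their levels, untested ones by their highest count, and up to 3 called genes of each related list by mean CPM, with A2m and Reck in any case. Results on 2 other genes are not reported here. Other alternatives were RLE size factors, total counts, a minimum of 10 counts in every sample or no filter, leaving out each sample, leaving out both normoxia samples numbered 2, replicate number as a block, only the 6 samples of a comparison, and a fold change of at least 2. Same-numbered samples of the normoxia groups deviated together from their group means, with a correlation of 0.355 or more (mean 0.41), and these numbers were used as the block. Samples 1 and 3 did so across numbers as well. Wild-type 1 with ΔN-VEGF 3 was at 0.347, and wild-type 3 with ΔN-VEGF 1 was at 0.358. The correlations thus follow the normoxia samples numbered 2 and do not show that the numbers pair the samples. In the other comparisons the means were 0.013, 0.056 and 0.073, with a pair below 0.1 in each.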

Additional observations from a re-analysis of the deposited data

How the results depend on the processing

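Counts are of members called at an adjusted p below 0.05, each with the share of all tested genes called in the same fit. Counts at an unadjusted p below 0.05 have no such share and cannot be set against a background. They were 11 (36.5%), 9 (53.3%), 4 (4.36%), 3 (20.1%) and 0 (3.36%) in hypoxia in wild-type cells, hypoxia in ΔN-VEGF cells, ΔN-VEGF against wild type in normoxia, the same in hypoxia, and the difference between the responses. Without both normoxia samples numbered 2 they were 21 (65.3%), 18 (71.4%), 16 (53.6%), 18 (55.8%) and 13 (52.8%). A fold change of at least 2 left 7 (15.7%) and 5 (27.2%) in the hypoxia comparisons. DESeq2 gave 7 for the lines in normoxia (8.16%), 6 in hypoxia (21%) and 1 for the difference (10.7%), for which no filter on low counts also gave 1 (1.47%). Total counts gave 5 for the lines in hypoxia (26.8%). Only the 6 samples of a comparison gave 3 for hypoxia in wild-type cells (23.8%), 0 for the lines in normoxia (0.108%; 6 at an unadjusted p below 0.05, edgeR) and 16 for the lines in hypoxia (57%). Replicate number as a block gave 1 for the lines in normoxia (4.37%), and 0 when fitted to the 6 normoxia samples only (0.00718%, 1 gene), an alternative added after the data were seen; in the other 4 comparisons the block changed no count by over 1.5 times, but it ended the call of Adamts4 in wild-type hypoxia.

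Leaving out 1 sample gave 6 to 15 members for hypoxia in wild-type cells, with 6 (26.9%) without wild-type hypoxia replicate 1, 7 without replicate 2 or 3 (28.1% and 26.8%) and 15 (54%) without wild-type normoxia replicate 2. For the lines in normoxia it gave 0 to 12, with 12 (48.9%) without wild-type normoxia replicate 2 and 1 or 0 (1.1% to 3.16%) without wild-type normoxia replicate 1 or 3, ΔN-VEGF normoxia replicate 1 or 3 or any hypoxia sample (9 or 10 at an unadjusted p below 0.05 where 0 were called). For the lines in hypoxia it gave 1 to 13, with 13 (42.4%) without wild-type normoxia replicate 2 and 1 (10.3% to 13.7%) without wild-type hypoxia replicate 1 or 2 or ΔN-VEGF hypoxia replicate 2 or 3. For the difference it gave 0 to 8, with 8 (44.4%) and 3 (4.76%) without wild-type and ΔN-VEGF normoxia replicate 2.

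The 27 calls gave 536 refitted values over all alternatives other than the fold change of at least 2, of which 441 kept their side of the threshold, 95 were lost and 0 reversed. Mmp2, Mmp16, Timp3 and Adamts13 in wild-type hypoxia, Adamts10, Adamts13, Mmp2, Mmp9, Mmp11, Mmp23 and Timp3 in ΔN-VEGF hypoxia, and Mmp9 between the hypoxic lines held in every refit that tested them, but Timp3 in both lines and Adamts10 in ΔN-VEGF cells did not reach a fold change of 2. Of this list, Mmp23 passed the filter only through hypoxic groups and Adamts13 only through ΔN-VEGF hypoxia, where they are high. Refits that dropped them are not counted. Counts under 3 in a library limit Mmp3, Mmp23 and Adamts13.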
